A study of Sus scrofa domesticus with 34 samples.

Results

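The slow and embryonic muscle genes described here were TNNC1, TNNI1, TNNT1, MYL2, MYL3 and MYH3. They are 6 of the 31907 genes counted in 34 libraries labelled as pig muscle, and each was found by the Ensembl identifier of its symbol (TNNC1 ENSSSCG00000011441, TNNI1 ENSSSCG00000024061, TNNT1 ENSSSCG00000025353, MYL2 ENSSSCG00000039710, MYL3 ENSSSCG00000011325 and MYH3 ENSSSCG00000018007). They were chosen by their measured log2 fold changes in 2 contrasts: the 6 were named with their differences between the combination diet and both cholecalciferol diets already known. Their values in those contrasts and their order across diets are therefore a description with no test. ACTA1 (ENSSSCG00000010190) and TNNC2 (ENSSSCG00000007424) of fast muscle were set beside them.

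Pigs received vitamin D in the feed at a grower and a finisher level. In the 25(OH)D diet (n = 8) the vitamin was calcidiol, the hydroxylated form also written 25(OH)D3, at 2000 IU (grower) and 1500 IU (finisher) per kg. The combination diet (n = 8) held 2000 and 1500 IU of cholecalciferol with 1000 IU of calcidiol in both phases. Increased cholecalciferol (n = 10) was 3000 and 2500 IU, and standard cholecalciferol (n = 8), the control of the study, was 2000 and 1500 IU. There were 18 females and 16 castrated males, with 6 females and 4 castrated males on increased cholecalciferol and 4 of each on every other diet. The labels name neither the muscle nor the age of the animals.

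Striated muscle contracts when calcium binds troponin on the thin filament, which lets myosin heads pull on actin. Slow and fast fibres build the same machinery from different genes: slow fibres, and in part the heart, use TNNC1 (calcium-binding troponin C), TNNI1 (inhibitory troponin I), TNNT1 (tropomyosin-binding troponin T), MYL2 (regulatory light chain) and MYL3 (essential light chain). MYH3 encodes the embryonic myosin heavy chain, which is made in developing and regenerating fibres and gives way to adult isoforms. Fast fibres use TNNC2 as their troponin C. ACTA1, the actin of skeletal thin filaments, is shared by both fibre types, so that it marks skeletal muscle as much as fast fibres.

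The libraries were made from the 3′ ends of transcripts, so that a transcript gives about 1 fragment whatever its length. Levels of different genes also depend on how well the annotation covers each 3′ end, which was not checked. Reads in no annotated gene made up 16.4 to 29.9% of a library. Orders and shares between genes are therefore those of counted reads only. Levels are CPM, the reads of a gene per 1 M reads counted in genes, on TMM-scaled library sizes. Totals were 1.34 to 30.4 M counts per library, with a median of 6.67 M. By the numbers in the names of the deposited files, the 24 libraries of file numbers 1 to 24 held 4.08 to 13.2 M, the 5 of file numbers 25 to 29 held 16.8 to 30.4 M, and the 5 of file numbers 30 to 34 held 1.34 to 2.69 M. The last 5 were 4 of the 8 combination libraries and 1 of the 8 25(OH)D libraries, with none from the cholecalciferol diets, so that diet and file number overlap. Markers of brain cells were abundant beside those of muscle: STMN2 of neurons reached 1043 to 2799 CPM, MBP of oligodendrocytes 1213 to 7587 CPM and GFAP of astrocytes 788 to 3826 CPM. What share of a library's RNA came from muscle fibres was not measured, and in bulk RNA fewer fibres cannot be told apart from less RNA per fibre.

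MYH3 had the highest counted level of the 6 genes and TNNI1 the lowest. Over the 34 libraries the mean level was 62.6 ± 38.7 CPM for MYH3 (SD), 23.1 ± 12.2 CPM for MYL3, 15.7 ± 7.12 CPM for MYL2, 9.51 ± 4.09 CPM for TNNT1, 1.74 ± 1.40 CPM for TNNC1 and 0.434 ± 0.485 CPM for TNNI1. ACTA1 averaged 1631 ± 909 CPM and TNNC2 937 ± 373 CPM. Reads behind a single value ran from 124 to 2517 for MYH3, 27 to 438 for MYL3, 34 to 302 for MYL2 and 18 to 277 for TNNT1. TNNC1 had 2 to 52 reads per library with a median of 7.5, so that counting error is a large part of any 1 of its values. TNNI1 had 0 to 11 reads, was at 0 in 11 libraries and under 3 reads in 19, and did not pass the filter on low counts. The other 5 members passed. Neighbours in this order of means had overlapping ranges: MYL3 spanned 4.46 to 58.3 CPM and MYL2 5.04 to 34.9 CPM.

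**Figure D1:**
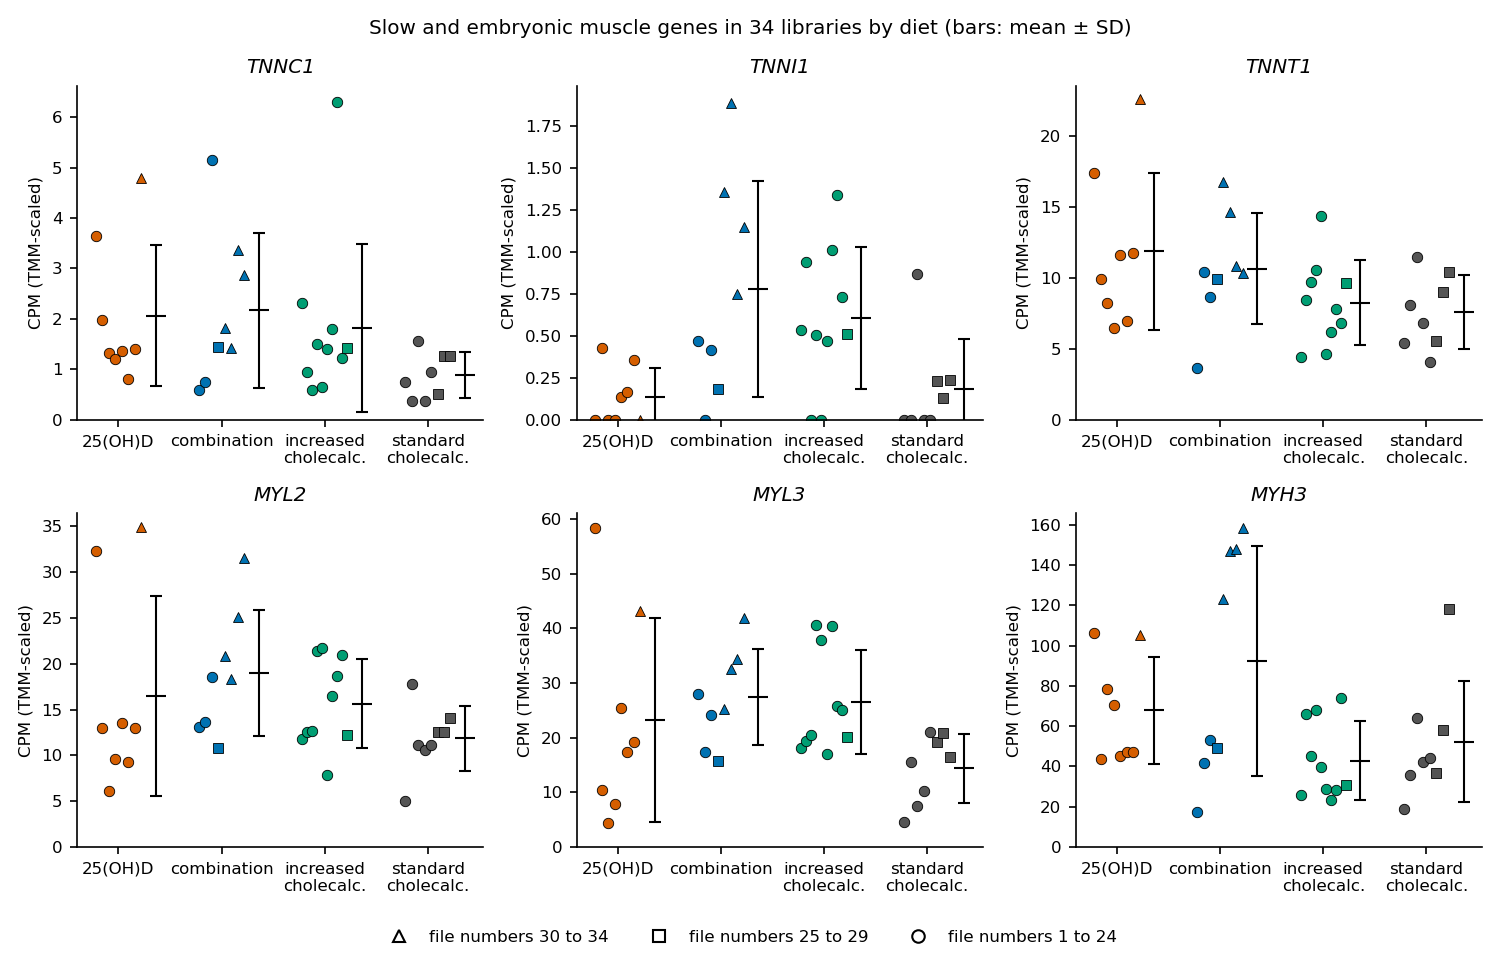
Level of each of the 6 genes in every library (CPM on a linear axis from 0) by diet, with the mean ± SD beside the points and a different marker for each run of file numbers. The triangles of file numbers 30 to 34 hold 4 of the 5 highest MYH3 values, 123 to 158 CPM, and every diet overlaps every other in all 6 genes. Overlap was not counted over all genes.

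MYH3, the embryonic heavy chain, stood highest in the combination libraries and lowest in those on increased cholecalciferol. Mean levels were 68.0 ± 26.6 CPM on 25(OH)D, 92.3 ± 57.2 CPM on the combination, 42.9 ± 19.4 CPM on increased cholecalciferol and 52.3 ± 30.0 CPM on standard cholecalciferol (SD). Single libraries ran from 43.8 to 106 CPM with a median of 58.9 CPM on 25(OH)D, from 17.6 to 158 CPM with a median of 88.1 CPM on the combination, from 23.4 to 73.7 CPM with a median of 35.2 CPM on increased cholecalciferol and from 19.1 to 118 CPM with a median of 43.2 CPM on standard cholecalciferol. The combination libraries fell into separate ranges by file number: replicates 5, 6, 7 and 8, of file numbers 30 to 34, held 123, 147, 148 and 158 CPM, while replicates 1, 2, 3 and 4 held 17.6, 41.9, 53.1 and 49.1 CPM. The remaining library of that run, 25(OH)D replicate 8, held 105 CPM. MYH3 thus averaged 136 ± 21.6 CPM in file numbers 30 to 34 (SD, n = 5) and 49.9 ± 23.8 CPM in the other 29 libraries, and without that run the combination mean was 40.4 ± 15.9 CPM (n = 4).

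Reads of MYH3 need care of their own. Myosin heavy chain genes are related in sequence, and 11.2 to 20.7% of all reads in a library aligned to more than 1 place and were left uncounted by gene. How many of those reads came from MYH3 is not known. The strand setting of the counting is not stated. The level of MYH3 is therefore uncertain, and MYH7, the slow heavy chain, was not analysed here.

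The mean levels of the light chains MYL2 and MYL3 were lowest on standard cholecalciferol. MYL2, the regulatory chain, averaged 16.5 ± 10.9 CPM on 25(OH)D, 19.0 ± 6.85 CPM on the combination, 15.6 ± 4.85 CPM on increased cholecalciferol and 11.9 ± 3.58 CPM on standard cholecalciferol (SD). Its single libraries ran from 6.11 to 34.9 CPM on 25(OH)D, 10.8 to 31.6 CPM (median 18.5) on the combination, 7.90 to 21.7 CPM (median 14.6) on increased cholecalciferol and 5.04 to 17.8 CPM (median 11.8) on standard cholecalciferol. On 25(OH)D, replicates 1 and 8 held 32.3 and 34.9 CPM. The other 6 held 6.11 to 13.5 CPM, within the range on standard cholecalciferol. The higher mean of MYL2 on 25(OH)D than on standard cholecalciferol thus rested on replicates 1 and 8.

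MYL3, the essential chain, averaged 23.3 ± 18.7 CPM on 25(OH)D, 27.4 ± 8.78 CPM on the combination, 26.5 ± 9.46 CPM on increased cholecalciferol and 14.4 ± 6.30 CPM on standard cholecalciferol (SD). Libraries spanned 4.46 to 58.3 CPM (median 18.2) on 25(OH)D, 15.7 to 41.9 CPM (median 26.6) on the combination, 17.0 to 40.6 CPM (median 22.8) on increased cholecalciferol and 4.55 to 21.1 CPM (median 16.0) on standard cholecalciferol. The 25(OH)D libraries were the most spread of the 4 diets, with replicates 1 and 8 again on top at 58.3 and 43.1 CPM. On standard cholecalciferol 4 of 8 libraries lay under the lowest library of the combination, at 4.55, 7.46, 10.3 and 15.6 CPM.

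TNNT1 had the smallest spread of the 6 genes for its level, with an SD of 43.0% of its mean. It averaged 11.9 ± 5.56 CPM on 25(OH)D, 10.6 ± 3.90 CPM on the combination, 8.25 ± 3.01 CPM on increased cholecalciferol and 7.59 ± 2.59 CPM on standard cholecalciferol (SD). Libraries spanned 6.46 to 22.6 CPM (median 10.8) on 25(OH)D, 3.64 to 16.7 CPM (median 10.4) on the combination, 4.38 to 14.4 CPM (median 8.11) on increased cholecalciferol and 4.08 to 11.5 CPM (median 7.46) on standard cholecalciferol. The highest values came from 25(OH)D replicates 8 and 1, at 22.6 and 17.4 CPM.

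TNNC1, the slow troponin C, averaged 2.07 ± 1.40 CPM on 25(OH)D, 2.17 ± 1.54 CPM on the combination, 1.81 ± 1.67 CPM on increased cholecalciferol and 0.876 ± 0.458 CPM on standard cholecalciferol (SD). Libraries spanned 0.810 to 4.79 CPM (median 1.39) on 25(OH)D, 0.587 to 5.15 CPM (median 1.62) on the combination, 0.583 to 6.32 CPM (median 1.41) on increased cholecalciferol and 0.359 to 1.56 CPM (median 0.845) on standard cholecalciferol. In each of the 3 diets other than standard cholecalciferol, 1 or 2 libraries stood well above the rest: increased replicate 8 with 6.32 CPM from 52 reads, combination replicate 3 with 5.15 CPM from 25 reads, and 25(OH)D replicates 8 and 1 with 4.79 and 3.64 CPM from 7 and 23 reads. The first pair also led in markers of cells other than muscle fibres. Increased replicate 8 had the highest summed level of the 34 for oligodendrocyte markers, 12023 CPM against a median of 5148 CPM, and for astrocyte markers, 6095 CPM against a median of 2452 CPM. Combination replicate 3 had the highest for fibroblast markers, 702 CPM against 137 CPM, and for smooth muscle markers, 597 CPM against 156 CPM. The part of those cells in the TNNC1 values was not tested.

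TNNI1 had too few reads for its values in single libraries to carry weight. Its mean was 0.134 ± 0.171 CPM on 25(OH)D, 0.775 ± 0.643 CPM on the combination, 0.602 ± 0.422 CPM on increased cholecalciferol and 0.182 ± 0.295 CPM on standard cholecalciferol (SD), and 0.265 ± 0.217 CPM in the 4 combination libraries outside file numbers 30 to 34. Over all libraries of a diet it had 7 reads on 25(OH)D, 22 on the combination, 53 on increased cholecalciferol and 17 on standard cholecalciferol. Per 1 M reads this came to 0.149 on 25(OH)D (95% exact Poisson interval 0.0597 to 0.306), 0.400 on the combination (0.250 to 0.605), 0.626 on increased cholecalciferol (0.469 to 0.819) and 0.191 on standard cholecalciferol (0.111 to 0.306). These sums weight a library by its depth and put increased cholecalciferol above the combination, while the means per library put the combination above increased cholecalciferol. The intervals cover counting error only and leave out the spread between animals. TNNI1 was at 0 reads in 4 of 8 libraries on 25(OH)D, 1 of 8 on the combination, 2 of 10 on increased cholecalciferol and 4 of 8 on standard cholecalciferol. In a fit with no filter on low counts, the log2 fold change was 1.71 (SE 0.80) for increased over standard cholecalciferol and −1.90 (SE 0.86) for 25(OH)D over increased cholecalciferol, with adjusted p of 0.562 and 0.423 by edgeR's quasi-likelihood test.

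Differences between diets were fitted with edgeR's quasi-likelihood test over the 13974 genes that passed the filter, with terms for diet and sex. A fold change is given on the log2 scale with its standard error, and a gene was called at a Benjamini-Hochberg adjusted p under 0.05 over all genes. In none of the 6 diet comparisons was any gene called (0.0% of 13974 in each), and DESeq2 and limma-voom likewise called 0. The comparisons share libraries with each other, so that a low set of standard libraries enters 3 of them at once. All 36 pairings of a member with 2 diets had overlapping ranges of CPM. This count was not taken over all genes, so that it does not set the members apart.

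In the combination over standard cholecalciferol, one of the contrasts by which the genes were chosen, all 5 fitted members lay above 0. The log2 fold change was 1.25 (SE 0.48) for TNNC1, 0.47 (SE 0.28) for TNNT1, 0.65 (SE 0.29) for MYL2, 0.89 (SE 0.36) for MYL3 and 0.86 (SE 0.36) for MYH3. ACTA1 and TNNC2 stood at 0.83 (SE 0.33) and 0.67 (SE 0.25), within the span of the members. An unadjusted p under 0.05 was reached by 4 of the 5 and by 4.34% of all genes, which follows from the choice of the members and carries no weight. Without file numbers 30 to 34 the value of MYH3 was −0.44 (SE 0.35), that of ACTA1 −0.30 (SE 0.32) and that of TNNC2 −0.02 (SE 0.26), while TNNC1 and MYL3 remained above 0 at 0.87 (SE 0.56) and 0.50 (SE 0.44). MYL2 and TNNT1 stood at 0.18 and 0.07. Within file numbers 1 to 24 (3 combination and 5 standard libraries) MYH3 stood at −0.22, ACTA1 at −0.01, MYL3 at 0.89 and TNNC1 at 1.03.

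The combination over increased cholecalciferol, the other contrast of the choice, set MYH3 apart from the slow genes. MYH3 stood at 1.11 (SE 0.34) and ACTA1 at 0.83 (SE 0.31), while MYL3 was at 0.03 (SE 0.34), TNNC1 at 0.16 (SE 0.45), MYL2 at 0.25 (SE 0.28) and TNNT1 at 0.34 (SE 0.27). An unadjusted p under 0.05 was reached by MYH3 and by 4.14% of all genes, again in a contrast of the choice. Without file numbers 30 to 34 MYH3 was at −0.25 (SE 0.34) and ACTA1 at −0.36 (SE 0.32), and within file numbers 1 to 24 (3 combination and 9 increased libraries) they were at −0.35 and −0.43. The other 4 members were also below 0 without that run, at −0.38 for MYL3, −0.25 for MYL2, −0.24 for TNNC1 and −0.11 for TNNT1. The direction of each of the 5 in this comparison thus turned without the run of file numbers 30 to 34. MYL3 and TNNC1, both small beside their SE, also turned with single libraries left out. MYL3 did so in 8 fits and TNNC1 in 2, among them −0.14 without combination replicate 3, which is outside that run.

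**Figure D2:**
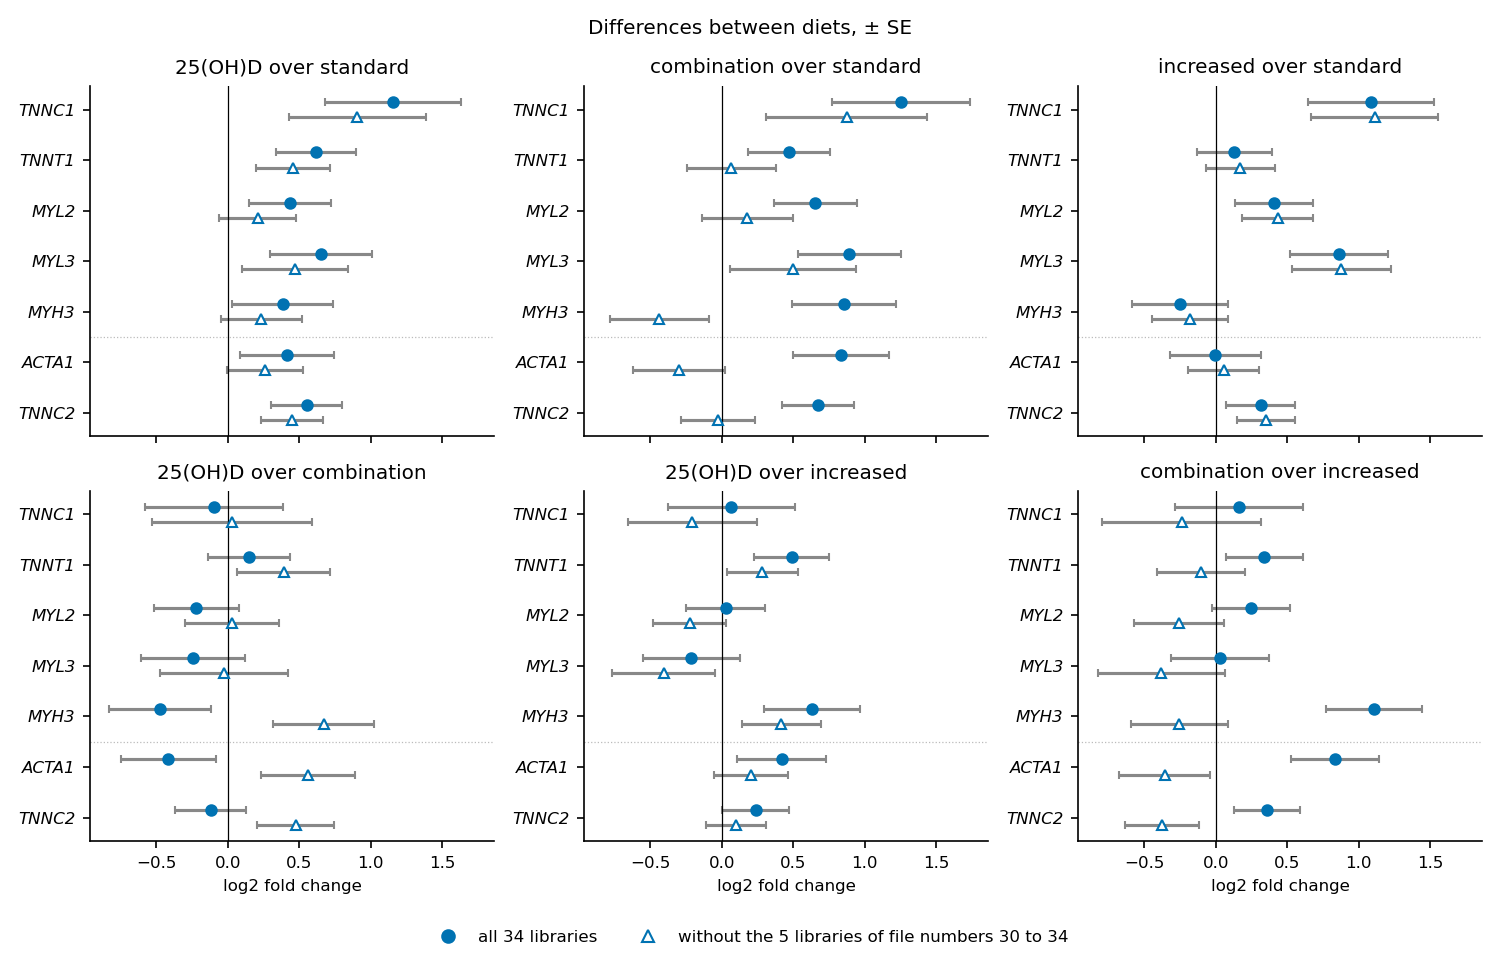
Log2 fold change ± SE of 5 members and, under the dotted line, ACTA1 and TNNC2 in each comparison of diets, with all 34 libraries (circles) and without file numbers 30 to 34 (triangles). MYH3 and ACTA1 lie on opposite sides of 0 with and without that run in the 3 comparisons that involve the combination, and MYL3 and TNNC1 stay right of 0 in all 3 comparisons with standard cholecalciferol.

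Increased over standard cholecalciferol did not involve the run of file numbers 30 to 34. MYL3 stood at 0.86 (95% interval 0.17 to 1.55) and TNNC1 at 1.09 (0.19 to 1.98), both with an adjusted p of 0.625. These were 2 of the 5 members under an unadjusted p of 0.05, a level that 7.77% of all genes passed. After adjustment 0 of 5 passed. In the fit this comparison is the difference between the 2 contrasts by which the genes were chosen. Its values and counts for the members are therefore a description and carry no weight as a test. MYL2 stood at 0.41 (−0.15 to 0.96, adjusted p = 0.694), TNNT1 at 0.13 (−0.40 to 0.66, adjusted p = 0.909) and MYH3 at −0.25 (−0.93 to 0.44, adjusted p = 0.853). TNNC2 was at 0.31 and ACTA1 at −0.002, while other genes of the fast list lay near MYL3, among them CKM, the muscle creatine kinase, at 0.79, and MYL1 at 0.65. As a share of CKM, MYL3 was 6.92 ± 1.46% on 25(OH)D, 6.86 ± 0.841% on the combination, 7.29 ± 0.754% on increased cholecalciferol and 6.88 ± 1.75% on standard cholecalciferol (SD). CKM was the gene most like MYL3 over these same libraries (r = 0.953), so that a near-constant ratio follows largely from this choice and carries no weight. Relative to ACTA1 and TNNC2 on the log2 scale, MYL3 averaged −5.31 ± 0.42 on increased and −6.06 ± 0.58 on standard cholecalciferol (SD). MYL3 kept its size within file numbers 1 to 24 (9 increased and 5 standard libraries), at 1.20 (SE 0.44).

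For 25(OH)D over standard cholecalciferol all 5 fitted members lay above 0 and 0 were called, each with an adjusted p of 1.00. TNNC1 stood at 1.15 (95% interval 0.19 to 2.12), MYL3 at 0.65 (−0.07 to 1.38), TNNT1 at 0.62 (0.05 to 1.18), MYL2 at 0.44 (−0.15 to 1.02) and MYH3 at 0.38 (−0.34 to 1.10). TNNC2 was at 0.55 and ACTA1 at 0.42, in the same span. At an unadjusted p under 0.05, 2 members passed (TNNC1 and TNNT1), beside 3.23% of all genes. Without file numbers 30 to 34 the 5 members ranged from 0.21 for MYL2 to 0.91 for TNNC1.

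25(OH)D over increased cholecalciferol gave values on both sides of 0. MYH3 stood at 0.63 (95% interval −0.05 to 1.32, adjusted p = 0.453) and TNNT1 at 0.49 (−0.05 to 1.02, adjusted p = 0.455). MYL3 was at −0.21 (−0.90 to 0.48), TNNC1 at 0.07 (−0.83 to 0.96) and MYL2 at 0.03 (−0.53 to 0.59), with adjusted p of 0.841, 0.967 and 0.978. At an unadjusted p under 0.05, 0 of the 5 passed, beside 12% of all genes.

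For 25(OH)D over the combination MYH3 was at −0.47 (95% interval −1.20 to 0.26, adjusted p = 0.762), and without file numbers 30 to 34 it was at 0.67 (SE 0.36). TNNT1 stood at 0.15, MYL2 at −0.22, MYL3 at −0.24 and TNNC1 at −0.10, with adjusted p from 0.857 to 0.968. None of the 5 passed an unadjusted p under 0.05, which 7.57% of all genes did.

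Females over castrated males, a contrast that did not serve in the choice of the genes, showed all 5 fitted members below 0. TNNC1 stood at −0.55 (95% interval −1.20 to 0.10, adjusted p = 0.778), MYH3 at −0.23 (−0.73 to 0.28, adjusted p = 0.884) and the remaining 3 at −0.09 to −0.02, with adjusted p of 0.944 to 0.994. No member was called by edgeR, beside 11 of 13974 genes (0.0787%; 15 by DESeq2 and 10 by limma-voom), and 0 of 5 passed an unadjusted p under 0.05, beside 6.58%. Without file numbers 30 to 34 the values were larger, −0.81 (SE 0.35) for TNNC1 and −0.56 (SE 0.21) for MYH3, and none was called. Marker lists of other cells also differed in this contrast: smooth muscle markers lay below 0 in 9 of 10 genes (median −0.63, 6 of 10 at an unadjusted p under 0.05), oligodendrocyte markers in 6 of 6 (median −0.40), and liver markers above 0 in 6 of 7 (median 0.38, 3 of 7 at an unadjusted p under 0.05). Their part in the values of the members was not tested. Without increased replicate 8, a castrated male with the highest TNNC1, the value of TNNC1 was −0.27. The mean of TNNC1 was 1.49 ± 1.12 CPM over 18 females and 2.01 ± 1.66 CPM over 16 castrated males (SD).

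Each of the 34 libraries was then left out in turn. For MYL3, leaving out 25(OH)D replicate 1 took 25(OH)D over standard cholecalciferol to 0.23, against 0.65 with it, and 25(OH)D over increased cholecalciferol to −0.62. For MYL2 the same library took 25(OH)D over standard cholecalciferol to 0.19, against 0.44. With 6.41 M counts, 25(OH)D replicate 1 had reads in 15610 genes, the fewest of the 34 libraries. The other libraries of file numbers 1 to 24 had reads in 17405 to 18895 genes. The part of this in its levels was not tested. MYL3 in increased over standard cholecalciferol did not rest on any 1 library: it stayed between 0.73 and 0.98. In the combination over standard cholecalciferol MYL3 stayed between 0.76 and 1.00 and MYL2 between 0.52 and 0.77. In the combination over increased cholecalciferol MYL3 was near 0 throughout, at −0.08 to 0.13, and lay below 0 in 8 of the 34 fits.

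TNNC1 also moved with single libraries. Without increased replicate 8 its value for increased over standard cholecalciferol was 0.66, against 1.09 with it. Combination over increased cholecalciferol stood at 0.58 without that library and at −0.14 without combination replicate 3, against 0.16 with all libraries. Combination over standard cholecalciferol stood at 0.94 without combination replicate 3, and 25(OH)D over standard cholecalciferol at 0.91 without 25(OH)D replicate 8.

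MYH3 on standard cholecalciferol turned on standard replicate 8, which held 118 CPM from 2517 reads when the other 7 held 19.1 to 64.1 CPM. Without it, increased over standard cholecalciferol stood at 0.00, against −0.25, and 25(OH)D over standard cholecalciferol at 0.65, against 0.38. ACTA1 in that library was 2848 CPM, against 1486 CPM or less in the other 7, and without the library ACTA1 stood at 0.25 in increased over standard cholecalciferol and 0.67 in 25(OH)D over standard cholecalciferol. Leaving out any 1 of the 34 libraries left MYH3 in the combination above 0 against both cholecalciferol diets, at 0.70 to 1.10 over standard and 0.95 to 1.28 over increased.

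**Figure D3:**
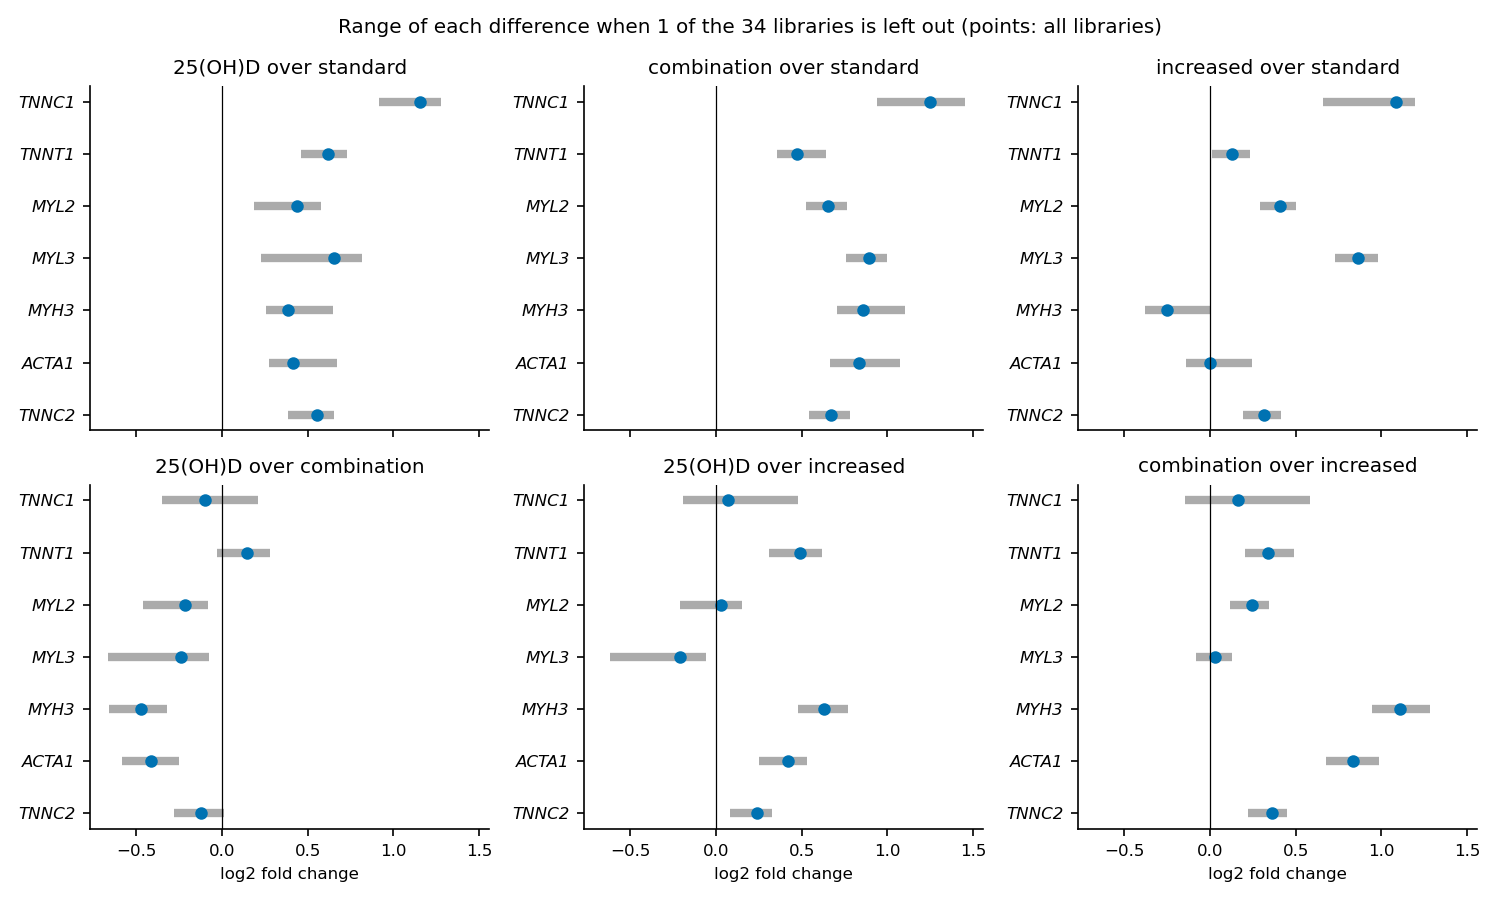
Log2 fold change with all libraries (points) and its range over the 34 fits that leave out 1 library (grey bars), by comparison. Bars that cross 0 belong mostly to values already near it, such as ACTA1 in increased over standard cholecalciferol (−0.14 to 0.25), and the widest bar is that of TNNC1 in the combination over increased cholecalciferol (−0.14 to 0.58).

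The members were next set against ACTA1 and TNNC2 within each library. MYH3 followed ACTA1 closely: over the 34 libraries Pearson's r of log2 CPM was 0.965 (Spearman's rho 0.930), 0.924 within file numbers 1 to 24, 0.955 without the 2 libraries farthest from the median of MYH3, and 0.817 to 0.996 within single diets. These libraries share tissue make-up and scaling, so that the correlations are descriptive. MYH3 amounted to 3.99 ± 0.95% of ACTA1 on 25(OH)D, 3.90 ± 0.431% on the combination, 3.27 ± 0.319% on increased cholecalciferol and 3.99 ± 0.449% on standard cholecalciferol (SD). The range on increased cholecalciferol, 2.78 to 3.71%, overlapped that of every other diet, the nearest being 3.32 to 4.83% on standard cholecalciferol. The ratio in file numbers 30 to 34 was 4.07 ± 0.375%, near the 3.70 ± 0.661% of the other 29 libraries, although ACTA1 itself stood at 3366 ± 567 CPM in that run and 1332 ± 547 CPM elsewhere.

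**Figure D4:**
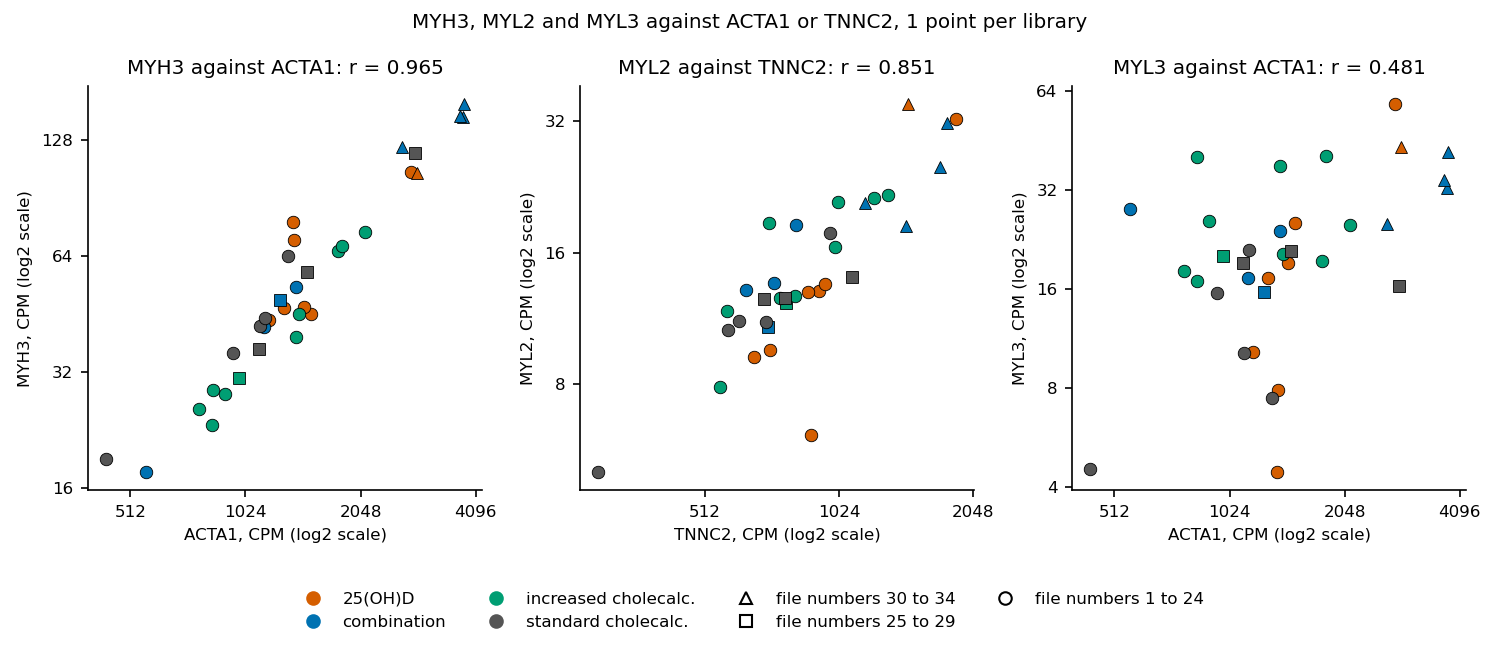
MYH3 against ACTA1, MYL2 against TNNC2 and MYL3 against ACTA1, 1 point per library, with CPM on log2 axes, colour for diet and marker shape for file numbers. MYH3 and ACTA1 lie along 1 line (r = 0.965) with file numbers 30 to 34 at its upper end, whereas MYL3 spreads widely at a given ACTA1 (r = 0.481).

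The light chains followed MYH3 less closely than ACTA1 did. MYL2 had r = 0.529 with MYH3 and r = 0.669 with ACTA1. MYL2 and MYL3 followed each other (r = 0.850, rho = 0.818, and 0.839 within file numbers 1 to 24), and MYL2 followed TNNC2 (r = 0.851, rho = 0.832, and 0.804 within file numbers 1 to 24). MYL3 and MYH3 had r = 0.276, which was 0.03 within file numbers 1 to 24. TNNT1 followed TNNC2 with r = 0.718 and ACTA1 with r = 0.709. TNNC1 followed no other member closely, with r from 0.355 for MYH3 to 0.515 for MYL2, and its few reads limit any such value.

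Relative to the mean of ACTA1 and TNNC2 on the log2 scale, MYL3 was highest on increased cholecalciferol. The difference averaged −6.16 ± 0.88 on 25(OH)D, −5.73 ± 0.59 on the combination, −5.31 ± 0.42 on increased cholecalciferol and −6.06 ± 0.58 on standard cholecalciferol (SD). For MYH3 it was −4.31 ± 0.34 on 25(OH)D, −4.25 ± 0.38 on the combination, −4.67 ± 0.35 on increased cholecalciferol and −4.25 ± 0.29 on standard cholecalciferol. MYH3 was thus lowest where MYL3 was highest. The means of TNNT1 lay between −7.09 and −6.81, those of MYL2 between −6.47 and −6.04 and those of TNNC1 between −9.56 and −9.09, with ranges that overlapped between all 4 diets.

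**Figure D5:**
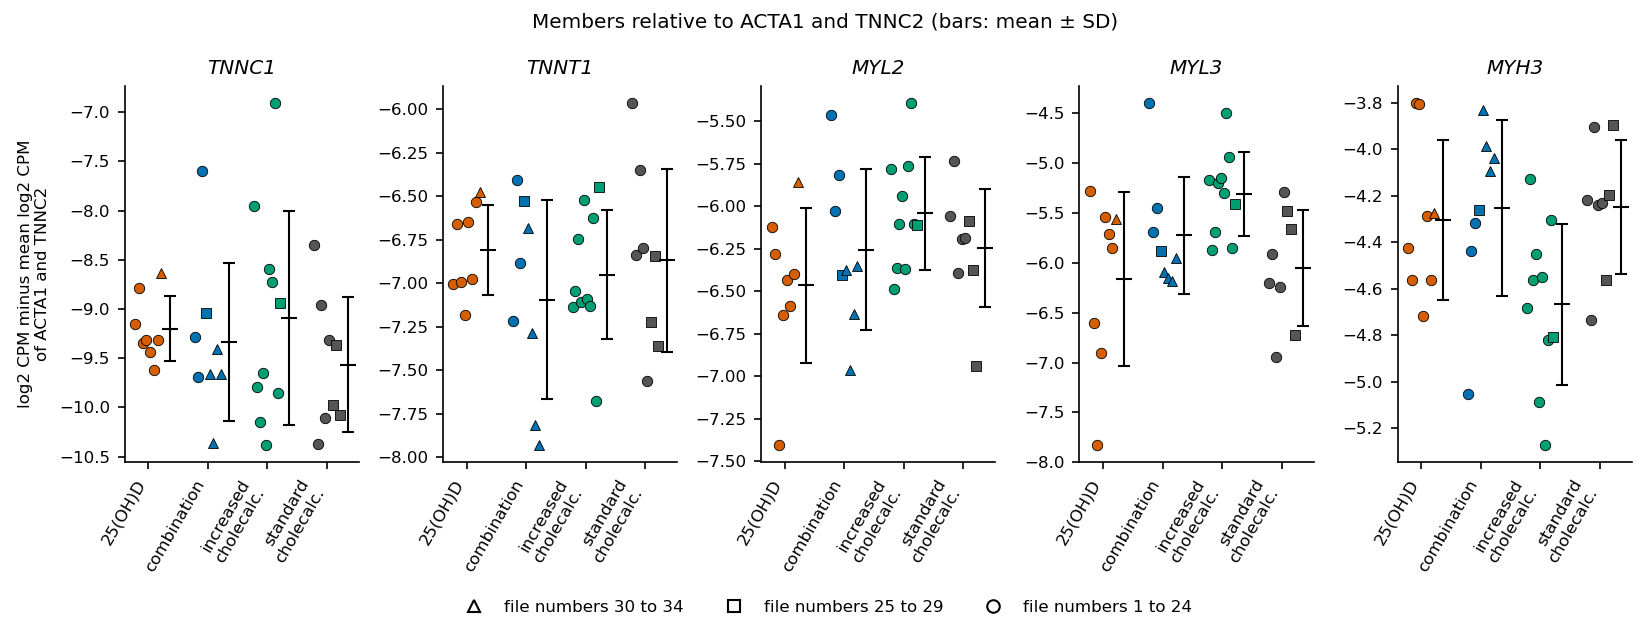
Log2 CPM of 5 members minus the mean log2 CPM of ACTA1 and TNNC2 in each library, with the mean ± SD by diet and a panel with its own axis for each gene. MYL3 averages −5.31 and MYH3 −4.67 on increased cholecalciferol, the highest diet mean of MYL3 and the lowest of MYH3, and MYH3 in file numbers 30 to 34 averages −4.05, against −4.44 in the other 29 libraries, within their range of −5.27 to −3.80.

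The share that a slow isoform took of the sum with its fast counterpart differed widely between pairs, which were chosen after their values were seen. These are shares of counted reads, and how well the annotation covers the 3′ end of each gene was not checked. TNNC1 made up 0.193 ± 0.164% of TNNC1 and TNNC2 together over the 34 libraries (SD), and TNNI1 0.271 ± 0.282% of TNNI1 and TNNI2. MYL2 made up 1.92 ± 0.35% of MYL2 and MYL11, the fast regulatory light chain. TNNT1 made up 14.0 ± 3.98% of TNNT1 and TNNT3, the fast troponin T, with diet means from 13.1% to 15.2%. MYL3 took most of its pair, 76.7 ± 6.87% of MYL3 and MYL1, the fast essential light chain, because MYL1 was counted at 6.37 ± 2.72 CPM, far below TNNC2, MYL11 (802 ± 331 CPM) and TNNI2 (162 ± 69.0 CPM). The share of MYL3 was 71.5 ± 9.39% on 25(OH)D, 78.5 ± 5.37% on the combination, 79.5 ± 2.88% on increased cholecalciferol and 76.7 ± 7.04% on standard cholecalciferol.

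The genes whose levels were most like those of the members over the 34 libraries, among 11134 with a symbol, are given here by the 3 highest correlations for each member. Closest to MYH3 were SYPL2, a membrane protein of the muscle triad (r = 0.982), ACTA1 and MYH6, a cardiac heavy chain and another gene of the myosin family (r = 0.933). MYL2 was most like MYL11 (r = 0.911), TNNI2, the fast troponin I (r = 0.908), and ACTN3, the fast-fibre actinin (r = 0.899). MYL3 was most like CKM (r = 0.953), CKMT2, its mitochondrial relative (r = 0.934), and ACTB, a cytoplasmic actin (r = 0.927). TNNT1 was most like HOXC10, a homeobox factor (r = 0.784), PGAM2, the muscle phosphoglycerate mutase (r = 0.772), and KIF1C, a kinesin (r = 0.764). TNNC1 was most like LGALS1, a galectin (r = 0.643, rho = 0.419), ATP2A1, the fast calcium pump (r = 0.612), and ECT2 (r = 0.578). LGALS1 had its highest values in increased replicate 8 and combination replicate 3, at 352 and 318 CPM against a median of 84.7 CPM, the libraries that also led in TNNC1.

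Markers of heart muscle, which shares TNNC1, MYL2 and MYL3 with slow fibres, were in part at 0. Of 9 cardiac markers measured, TNNI3, NKX2-5, GATA4, TBX5 and HAND2 had a median of 0 CPM over the 34 libraries. MYH6 was present at 13.4 to 93.5 CPM and followed MYH3, as given above. The summed level of the 9 was 156 to 172 CPM in file numbers 30 to 34 and 86.3 to 173 CPM in the other libraries. Neuron markers summed to 5336 to 5902 CPM in file numbers 30 to 34 and 4029 to 8484 CPM in the other 29. Fast-twitch genes, 16 measured, summed to 6254 to 9101 CPM in file numbers 30 to 34 and 1698 to 8736 CPM in the others. That run thus lay high in fast genes as well as in MYH3. The part of fibre content in the members' differences was not tested.

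Other genes of slow fibres lay on both sides of 0 between diets. Of the 20 listed, 11 were fitted, with a median log2 fold change of −0.02 in the combination over standard cholecalciferol and −0.01 in increased over standard cholecalciferol, near the median of all genes (0.00 and 0.01), and 0.16 in 25(OH)D over standard cholecalciferol. None was called in any comparison by edgeR. At an unadjusted p under 0.05 the list had 1 gene higher in the combination over standard cholecalciferol (MYBPC1, the slow myosin-binding protein C, 0.57, SE 0.27), beside 2.24% of all genes, and the same gene in 25(OH)D over standard cholecalciferol (0.62, SE 0.27), beside 1.5%. COX7A1, a muscle subunit of cytochrome oxidase, was lower in increased over standard cholecalciferol (−1.10, SE 0.46), beside 4.74%, and ANKRD1, a stretch-responsive protein, higher in the combination over increased cholecalciferol (1.03, SE 0.43), beside 2.41%. Both averaged under 2 CPM in each diet. ANKRD1 was highest in combination replicates 7 and 8, of file numbers 30 to 34, at 3.37 and 2.87 CPM against a median of 1.07 CPM. In those libraries 3 reads were worth 1.12 and 1.81 CPM. MYBPC1 was highest in 25(OH)D replicate 1 (91.1 CPM) and combination replicate 8 (58.6 CPM), against a median of 31.2 CPM. Values of ANKRD1 and MYBPC1 without these libraries are not given here. ATP2A2, the slow calcium pump, stood at 0.16 (SE 0.07) in females over castrated males.

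Other genes of embryonic and regenerating muscle were mostly below the filter: 6 of 20 were fitted, and the factors MYOG, MYOD1, MYF5 and MYF6 were at 0 in 9 to 17 libraries each. MYH8, the perinatal heavy chain and the closest counterpart of MYH3 in role, stood at 0.60 in both the combination (SE 0.23) and 25(OH)D (SE 0.23) over standard cholecalciferol, with adjusted p of 0.999 and 1.00, and its level followed MYH3 with r = 0.758. MYH8 was highest in 25(OH)D replicate 1 (126 CPM) and combination replicate 6 (92.9 CPM), against a median of 52.9 CPM. Values of MYH8 without these libraries are not given here. DLK1, a growth regulator of fetal tissues, stood at 2.75 (SE 0.95) in the combination over standard cholecalciferol. However, combination replicate 3 held 133 CPM and every other library 6.52 CPM or less. DLK1 likewise stood at 2.71 (SE 0.88) in the combination over increased cholecalciferol and −2.61 (SE 0.91) in 25(OH)D over the combination. NCAM1, a neural and satellite cell adhesion molecule, stood at −0.29 (SE 0.12) in the combination over standard cholecalciferol, SPP1 (osteopontin) at −0.72 (SE 0.31) in 25(OH)D over increased cholecalciferol, and DES (desmin, which is also in the smooth muscle list) at −0.90 (SE 0.36) in females over castrated males. None of the 6 was called.

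Among 18 fitted regulators of fibre type, none was called and the medians lay between −0.05 and 0.06 in the 6 diet comparisons. PROX1, a homeobox factor of slow fibres, stood at −0.80 (SE 0.32) in 25(OH)D over the combination. PPP3R1, a calcineurin subunit, was at −0.48 (SE 0.23) in the combination over standard cholecalciferol, and NFATC3, a target of calcineurin, at −0.50 (SE 0.21) in the combination over increased cholecalciferol. PPARD, a nuclear receptor of oxidative fibres, was at −0.45 (SE 0.20) in increased over standard cholecalciferol. ESRRG, another such receptor, was at 0.32 (SE 0.13) in 25(OH)D over increased cholecalciferol, and MEF2A at 0.21 (SE 0.10) in females over castrated males.

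The fast-twitch list, by contrast, lay mostly above 0: 15 of 16 genes in the combination over standard cholecalciferol (median 0.62), 15 of 16 in 25(OH)D over standard cholecalciferol (median 0.55) and 13 of 16 in increased over standard cholecalciferol (median 0.34). At an unadjusted p under 0.05, 13, 7 and 4 of them were higher, beside 2.24%, 1.5% and 3.03% of all genes, and 0 were called after adjustment. ACTA1 and TNNC2 are among these 16 and followed each other with r = 0.845, so that the genes of the list are not independent. The list was chosen with earlier results of these data known, and the 3 comparisons share the standard libraries. These counts are therefore a description and carry no weight as a test. Without file numbers 30 to 34, an alternative chosen after seeing the data, 9 of 16 lay above 0 in the combination over standard cholecalciferol (median 0.10) and 0 were higher at an unadjusted p under 0.05. In 25(OH)D and in increased over standard cholecalciferol 14 of 16 each then lay above 0 (medians 0.43 and 0.38). Markers of other cells lay above 0 in the combination over standard cholecalciferol as well: fibroblast markers in 8 of 8 (median 0.84, 5 of 8 at an unadjusted p under 0.05) and smooth muscle markers in 10 of 10 (median 0.50). Without combination replicate 3 these were 7 of 8 (median 0.10, 0 at an unadjusted p under 0.05) and 6 of 10 (median 0.03), while the fast-twitch list was at 15 of 16 (median 0.65). The part of those cells in the values of the members was not tested.

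Within the fast-twitch list, the smallest p-values in the combination over standard cholecalciferol after that of TNNC2 belonged to CKM (0.93, SE 0.36), MYOZ1, a Z-disc protein (0.73, SE 0.28), TNNT3 (0.76, SE 0.29) and MYL1 (0.74, SE 0.29). In increased over standard cholecalciferol the 4 were MYOZ1 (0.78, SE 0.27), MYL1 (0.65, SE 0.27), CKM (0.79, SE 0.34) and ENO3, the muscle enolase (0.46, SE 0.22). In 25(OH)D over standard cholecalciferol MYL1 stood at 0.77 (SE 0.28), ENO3 at 0.64 (SE 0.24), PGAM2 at 0.61 (SE 0.25) and ACTN3 at 0.61 (SE 0.25). PVALB, the calcium buffer parvalbumin, stood beside ACTA1 in the combination over increased cholecalciferol, at 0.54 (SE 0.22).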

How the data were processed

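Muscle-labelled RNA of 34 pigs, 1 library per animal by the series description, was sequenced from transcript 3′ ends, per the labels' protocols. The deposited values are raw counts of reads per gene, with the category lines that HTSeq writes. The submitters' processing notes name FastQC, TopHat, HTSeq and DESeq2, without versions, a genome build or an annotation. The 5 category lines per file, with 35.0 to 48.3% of reads, were left out.

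Genes were filtered by filterByExpr (13974 of 31907 kept), scaled by TMM and tested with edgeR 4.0.16 (R 4.3.3), with diet and sex as terms over all 34 libraries and Benjamini-Hochberg adjustment over all genes at 0.05. The test was checked on simulated data. In the 3 comparisons with standard cholecalciferol it recovered 14.8 to 23.9% of 1.5-fold, 46.3 to 51.6% of 2-fold and 85.3 to 89.1% of 4-fold changes. For sex the shares were 44.2%, 77.5% and 100%. A gene not called can therefore still differ by a fold of 1.5 or 2. P-values measure the spread between animals. Log2 CPM for correlations used a prior count of 3. Symbols came from a name table that matched 15027 identifiers.

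Alternatives were RLE scaling, no filter, DESeq2 1.42.0, limma-voom (limma 3.58.1), no covariate beside the one compared, a term for runs of file numbers, fits without file numbers 30 to 34 or on 1 to 24, fits of only the diets compared, and each library left out. The members and lists were chosen with earlier results of these data known. Other genes named are those of the fixed lists under an unadjusted p of 0.05 (up to 5 per list and comparison), the 3 genes most like each member, and the markers; where a gene or pair was picked after its values were seen, this is stated. DLK1, LGALS1 and MYH8 were looked up by library after their values were seen. A gene of the lists is not reported here.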

Additional observations from a re-analysis of the deposited data

Results flagged for a closer look

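In 4 of the 32 groups of a gene and a diet, the highest library stood apart from the rest of its diet by Dixon's criterion. For normally distributed values, chance meets it in about 1 in 20 groups. The criterion was applied to CPM without a log scale, for which that rate was not checked. TNNC1 in increased replicate 8 was 6.32 CPM, with the next library at 2.32 CPM. TNNI1 in standard replicate 3 was 0.868 CPM, with the next at 0.235 CPM, a difference of a few reads. MYH3 and ACTA1 stood apart in the same library, standard replicate 8, at 118 CPM (next 64.1 CPM) and 2848 CPM (next 1486 CPM). As these genes followed each other (r = 0.965), they are not separate cases. The 4 values of MYH3 in the combination libraries of file numbers 30 to 34 did not meet the criterion, since they lie together.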

How the results depend on the processing

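Results of 25(OH)D over the combination turned with the run of file numbers 30 to 34, and the cause was not tested. With a term for the runs, without file numbers 30 to 34, and on file numbers 1 to 24 alone, the log2 fold change of that comparison was 0.50, 0.67 and 0.73 for MYH3, 0.45, 0.56 and 0.61 for ACTA1 and 0.38, 0.47 and 0.45 for TNNC2, each below 0 with all libraries. It was 0.16 and 0.030 for MYL2 and 0.25 and 0.032 for TNNC1 under the first pair of these, 0.10 for MYL3 under the run term, and 0.23 for TNNC1 by limma-voom. In 25(OH)D over increased cholecalciferol, TNNC1 was −0.13, −0.21 and −0.29 and MYL2 −0.19, −0.22 and −0.30 under the same 3 settings, and MYL2 was −0.17 by limma-voom. In increased over standard cholecalciferol, MYH3 was 0.13 on file numbers 1 to 24, and ACTA1, −0.002 with all libraries, was 0.0043 with RLE scaling, 0.0018 with no filter, 0.0045 by DESeq2, 0.066 by limma-voom, 0.17 with the run term, 0.056 without file numbers 30 to 34, 0.41 on file numbers 1 to 24 and 0.078 with only these diets. MYL3 in females over castrated males was 0.035 by limma-voom and 0.019 with no other covariate in the fit.

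With 1 library left out, ranges that crossed 0 were −0.14 to 0.25 (ACTA1) and −0.38 to 0.0027 (MYH3) in increased over standard cholecalciferol; −0.081 to 0.13 (MYL3) and −0.14 to 0.58 (TNNC1) in the combination over increased cholecalciferol; −0.19 to 0.48 (TNNC1) and −0.21 to 0.15 (MYL2) in 25(OH)D over increased cholecalciferol; −0.28 to 0.010 (TNNC2), −0.35 to 0.21 (TNNC1) and −0.032 to 0.28 (TNNT1) in 25(OH)D over the combination; and −0.18 to 0.026 (ACTA1), −0.10 to 0.18 (MYL3) and −0.20 to 0.026 (MYL2) in females over castrated males.

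Genes called in the combination over increased cholecalciferol numbered 1 with the run term, 1 without file numbers 30 to 34 and 2 on file numbers 1 to 24, against 0 with all libraries. In 25(OH)D over the combination they numbered 2 without file numbers 30 to 34 and 8 on file numbers 1 to 24, and for sex 18 with the run term, against 11. None was a member: the smallest adjusted p of a member, ACTA1 or TNNC2 was 0.271 over 43 settings. TNNC1 had no value with only the diets compared, and TNNI1 had one only with no filter, since neither passed those filters. No paired analysis was possible because the labels give no replicate numbers that pair animals across diets. Depth limits TNNC1 and TNNI1 most: 3 reads were worth 0.0988 to 2.24 CPM in a library.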
